A study of Homo sapiens with 8 samples.

Results

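The lowest dose of bleomycin, 24 µg/ml, was compared with no treatment in lung-directed cells made from the human embryonic stem cell line H7. The comparison takes 4 of the 8 sequenced libraries, the 2 of cells given 24 µg/ml and the 2 of untreated cells, chosen by their labels, and covers every gene that passed a filter on low counts, 18303 of 46427 symbols. The cells are wild type, and their label calls them type 2 alveolar cells reached by differentiation. They had been submerged on inserts for 3 days and kept at an air-liquid interface for 7 days. In the treated cells 500 µl of bleomycin then lay on the apical side for 24 hours. The labels give no volume or hours for the untreated cells, so the drug and the added liquid cannot be told apart. The stock solution is labelled 10 µg/ml, below the dose itself. The remaining 4 libraries come from the same cells at 240 and 480 µg/ml and serve here to show where the lowest dose stands. The labels do not say whether the 2 libraries of a group were separate cultures, so every p-value below measures a spread that may be technical.

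Bleomycin is a glycopeptide that cuts both strands of DNA, and it is widely used to provoke lung fibrosis in animals. A cut chromosome activates the kinases ATM and ATR, which stabilise the transcription factor p53. p53 in turn switches on genes that halt the cell cycle, repair DNA, adjust metabolism or start cell death, and among them MDM2, whose product marks p53 for destruction. In the lung, type 2 alveolar cells make surfactant and replace damaged epithelium, and prolonged p53 activity in them is studied as a feature of fibrosis.

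Of 25 listed markers of type 2 cells 22 were tested, with a summed level of 1090 and 1060 CPM at 24 µg/ml and 1150 and 1070 CPM in untreated cells, and the 3 that failed the filter were surfactant genes. CPM are counts scaled to a common library size with TMM factors and are not divided by gene length. SFTPC, whose product marks type 2 cells most strictly, had 0 and 5 counts at 24 µg/ml and 0 in both untreated libraries, with 55941640 to 67715984 counts in a library. SFTPA1 had 0 counts in these 4 libraries and SFTPA2 at most 5, whereas SFTPB was measured at 11.3 and 31.2 CPM at 24 µg/ml and at 14.9 and 16.9 CPM in untreated cells. AFP, the fetal albumin gene of liver and yolk sac, took 4.58% and 3.37% of counts at 24 µg/ml and 4.23% and 4.50% in untreated cells. The cells are therefore called here by their treatment. In bulk RNA, fewer cells of a type and less RNA per cell cannot be told apart.

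Across all genes the lowest dose moved little. The median log2 fold change of 24 µg/ml over untreated was 0.01, with 51.4% of genes above 0, and 3.80% of genes had a log2 fold change beyond 1 in either direction. By edgeR's quasi-likelihood test over all 8 libraries, 0 of 18303 genes passed a Benjamini-Hochberg adjusted p of 0.05. At an unadjusted p under 0.05 there were 605 genes, 370 higher (2.02% of all genes) and 235 lower (1.28%), where 915 would fall by chance. The libraries of 480 µg/ml had a common dispersion of 0.0543, those of 24 µg/ml 0.0142 and those of untreated cells 0.00821, and all groups share 1 estimate of spread in that fit. Without either or both of the 480 µg/ml libraries, the same test called 22 genes higher and 2 lower. Of the genes tested without both, these are 0.123% and 0.0112%. With only the 4 libraries compared it called 14 genes (0.0802% of those tested), 12 higher (0.0687%) and 2 lower (0.0115%). DESeq2 over all 8 libraries called 32 higher (0.175%) and 4 lower (0.0219%), and limma voom with 1 variance weight for each group called 16 (0.0874%) and 3 (0.0164%).

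Of 19 alternatives to edgeR over 8 libraries, 4 that made calls are followed here: edgeR on 6 libraries, edgeR on 4 libraries, DESeq2 and voom. All of them hold the same 4 libraries compared, so their calls are not independent. Among the other alternatives, edgeR with a stricter filter or with replicate number as a block called 0 genes, and with no filter 83. The 4 fits called 45 genes between them, 38 higher and 7 lower. Of the 45, 7 are readthrough or uncharacterised symbols whose reads cannot be assigned with certainty and are not described. Called by all 4 were 8 genes, each of them higher at 24 µg/ml: FDXR, ACTA2, GDF15, TNFRSF10C, PTCHD4, INPP5D, CDKN1A and MDM2. FDXR, CDKN1A, MDM2, GDF15 and TNFRSF10C are on the lists of p53 targets used here, which hold 57 genes, and those lists were drawn up with earlier results of these data known.

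FDXR encodes ferredoxin reductase, a mitochondrial enzyme that passes electrons to iron-sulphur cluster and steroid synthesis, and lies at chr17:74862497-74872994. It stood at 18.2 and 17.6 CPM at 24 µg/ml, against 7.71 and 7.60 CPM in untreated cells. Its log2 fold change was 1.23 ± 0.19 (SE, n = 2 libraries in each group), with an edgeR adjusted p of 0.256 over 8 libraries and 0.00327 over 6 libraries, and 3.92e-06 by DESeq2. The libraries of a group differed by far less than the groups did.

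CDKN1A (chr6:36676463-36687332) encodes p21, which blocks cyclin-dependent kinases and stops the cell cycle. It had 308 and 304 CPM at 24 µg/ml and 189 and 158 CPM in untreated cells, a log2 fold change of 0.82 ± 0.18 with an edgeR adjusted p of 0.67 over 8 libraries and 0.0299 over 6. MDM2 (chr12:68808172-68850686), the ubiquitin ligase that limits p53, had 199 and 223 CPM at 24 µg/ml and 126 and 130 CPM in untreated cells, with 0.72 ± 0.12 and edgeR adjusted p-values of 0.356 and 0.0273. For both genes the lower 24 µg/ml library lay above the higher untreated one.

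GDF15 (chr19:18386158-18389176) encodes a secreted stress hormone of the TGF-beta superfamily. It had 283 and 299 CPM at 24 µg/ml, against 163 and 133 CPM in untreated cells (0.98 ± 0.17, edgeR adjusted p of 0.356 over 8 libraries and 0.0328 over 6). TNFRSF10C (chr8:23102921-23117445), a decoy receptor that binds the death ligand TRAIL without passing on a signal, had 15.2 and 16.6 CPM at 24 µg/ml and 8.54 and 7.70 CPM in untreated cells. Its log2 fold change was 0.97 ± 0.13, with edgeR adjusted p-values of 0.256 and 0.0273. Neither gene's groups overlapped.

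The other 3 genes called by all 4 fits were on none of the p53 lists, and whether p53 acts on them was not tested. INPP5D (chr2:233060342-233207903), a lipid phosphatase best known from blood cells as SHIP1, had 83.7 and 89.2 CPM at 24 µg/ml and 51.4 and 44.6 CPM in untreated cells (0.85 ± 0.13, edgeR adjusted p of 0.0273 over 6 libraries). PTCHD4 (chr6:47856673-48111197), a patched-like membrane protein that dampens hedgehog signalling, had 31.4 and 33.9 CPM at 24 µg/ml and 15.8 and 19.0 CPM in untreated cells (0.91 ± 0.17, edgeR adjusted p of 0.0346 over 6 libraries). ACTA2 (chr10:88935074-88991337), smooth muscle actin and a common marker of myofibroblasts, had 37.5 and 39.1 CPM at 24 µg/ml and 20.4 and 17.1 CPM in untreated cells (1.03 ± 0.16, edgeR adjusted p of 0.0226 over 6 libraries). Over 8 libraries the edgeR adjusted p was 0.256 for INPP5D, 0.398 for PTCHD4 and 0.256 for ACTA2. ACTA2 and FAS lie head to head on opposite strands and overlap in the annotation, and the strand counted is not given in the sources used here, so their reads may be partly shared.

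**Figure D1:**
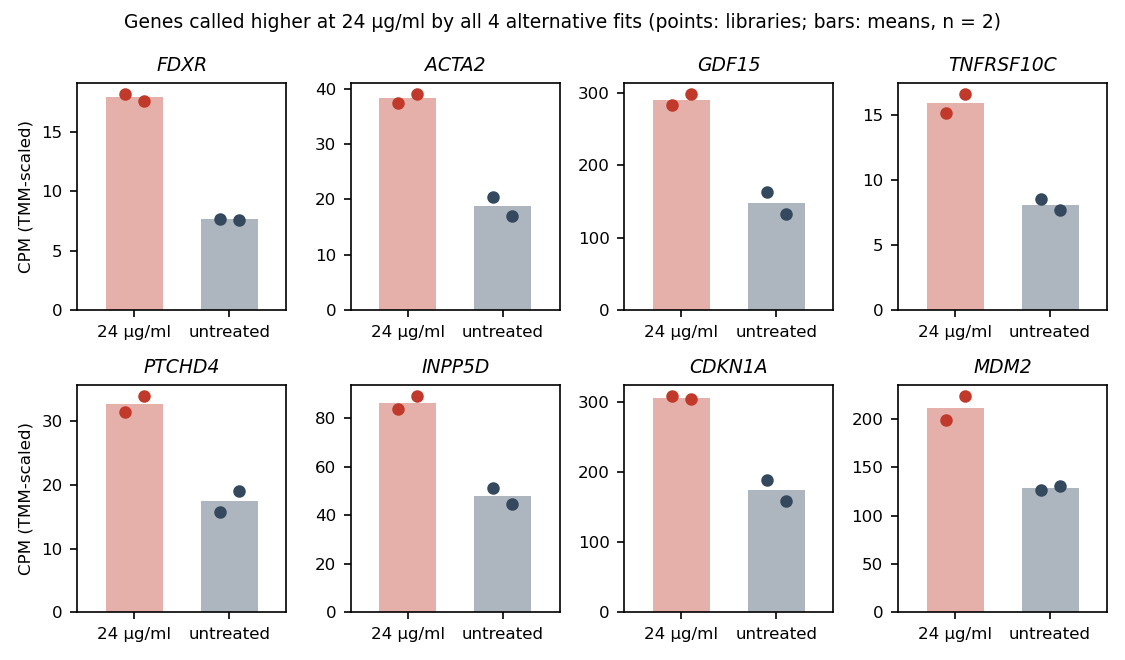
Scaled counts (CPM) of the 8 genes called higher by all 4 other fits, with 24 µg/ml left and untreated cells right; points are libraries and bars are means of n = 2. In every panel both points of 24 µg/ml lie above both untreated points, as for FDXR with 18.2 and 17.6 CPM at 24 µg/ml and 7.71 and 7.60 CPM in untreated cells.

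Promoter windows of 3 of these genes hold the p53 half-site, a degenerate motif of 10 bases that p53 binds in pairs, and they are printed to show where it falls. The windows run from 250 bases before to 50 after a transcript start in RefSeq (GRCh38.p14), 5′ to 3′ on the gene's strand, and capitals mark each match. FDXR is at chr17:74872945-74873244 on the minus strand, PTCHD4 at chr6:48111148-48111447 on the minus strand and ACTA2 at chr10:88991288-88991587 on the minus strand.
FDXR: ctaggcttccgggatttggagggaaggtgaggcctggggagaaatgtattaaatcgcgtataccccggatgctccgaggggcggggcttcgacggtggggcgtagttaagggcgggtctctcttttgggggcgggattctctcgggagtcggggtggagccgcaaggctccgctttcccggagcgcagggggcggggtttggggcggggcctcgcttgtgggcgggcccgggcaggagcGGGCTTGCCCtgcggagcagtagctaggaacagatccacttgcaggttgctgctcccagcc
PTCHD4: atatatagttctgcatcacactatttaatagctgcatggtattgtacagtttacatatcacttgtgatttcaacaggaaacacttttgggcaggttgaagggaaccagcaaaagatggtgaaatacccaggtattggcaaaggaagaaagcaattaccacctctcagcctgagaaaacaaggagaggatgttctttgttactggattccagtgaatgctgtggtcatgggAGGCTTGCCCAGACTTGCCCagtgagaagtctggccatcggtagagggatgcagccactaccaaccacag
ACTA2: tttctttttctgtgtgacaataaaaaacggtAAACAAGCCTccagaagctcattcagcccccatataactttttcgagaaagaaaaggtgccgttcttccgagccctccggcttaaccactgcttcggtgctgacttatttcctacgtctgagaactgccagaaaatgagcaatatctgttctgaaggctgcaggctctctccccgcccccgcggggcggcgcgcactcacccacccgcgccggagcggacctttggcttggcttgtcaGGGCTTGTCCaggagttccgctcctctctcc
Counting the start as position 0, the FDXR match spans -11 to -2. PTCHD4 holds 2 half-sites that abut each other, at -20 to -11 and -10 to -1. ACTA2 holds 1 match at -219 to -210 and 1 at 19 to 28, and the same bases as the second, chr10:88991309-88991318, lie at -122 to -113 of a FAS window. With both strands searched, the half-site occurred in windows of 9 of the 42 p53 list genes that have one in the table (21.4%) and in 1023 of the 13134 tested genes (7.79%). The 3 windows were chosen after the matches were seen, a match is not evidence of binding, and no wider window was searched.

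The p53 targets as a whole stood modestly above their untreated levels. Of 57 listed genes 56 were tested, and TP53AIP1, with at most 4 counts, was not. The median log2 fold change was 0.40, with 53 of 56 above 0. In 51 of them (91.1%) both 24 µg/ml libraries exceeded both untreated ones, while 18.6% of all genes tested showed this. The count called in that direction was 0 of 56 by edgeR over 8 libraries (0% of all genes). It was 13 by edgeR over 6 libraries (0.123% of all genes), 12 by DESeq2 (0.175%), 8 by voom (0.0874%) and 6 by edgeR over 4 libraries (0.0687%). The median of the list was 0.34 in 24 µg/ml replicate 1 and 0.43 in replicate 2, each set against the untreated mean. All gene lists were drawn up with earlier results of these data known, so the shares given for them are a description.

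Genes of cell cycle arrest and p53 feedback numbered 19, and all 19 lay above 0 without overlap, with log2 fold changes of 0.13 to 0.82 and a median of 0.41. PHLDA3, which restrains the kinase AKT, had 20.9 and 21.8 CPM at 24 µg/ml and 12.7 and 11.6 CPM in untreated cells (0.81 ± 0.23). PHLDA3 was called by edgeR over 6 libraries (adjusted p of 0.0273) and over 4 (0.048) and missed the threshold by DESeq2 (0.0993). ZMAT3, an RNA-binding p53 target, had a log2 fold change of 0.60, SESN1, a stress-induced inhibitor of mTORC1 signalling, 0.50, and CCNG1, cyclin G1, 0.13.

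Of 17 tested cell death targets 15 lay above 0, with log2 fold changes of -0.55 to 0.97 and a median of 0.36. FAS (chr10:88964050-89017059), the death receptor CD95, had 8.45 and 11.1 CPM at 24 µg/ml and 4.75 and 5.47 CPM in untreated cells (0.94 ± 0.17), and was called by DESeq2 (adjusted p of 0.00551) but not by edgeR over 6 libraries (0.0898). BBC3, which encodes the pro-apoptotic protein PUMA, had 16.1 and 14.2 CPM at 24 µg/ml and 8.40 and 7.12 CPM in untreated cells (0.97 ± 0.21, edgeR adjusted p of 0.0346 over 6 libraries). Over 8 libraries the edgeR adjusted p was 0.398 for FAS and 0.609 for BBC3. The groups did not overlap for either gene.

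EDA2R, a receptor of the TNF family, had 18.3 and 19.8 CPM at 24 µg/ml and 12.3 and 11.3 CPM in untreated cells (0.69 ± 0.12, edgeR adjusted p of 0.0444 over 6 libraries). SPATA18, a mitochondrial quality-control gene, had 25.3 and 29.6 CPM at 24 µg/ml and 16.5 and 15.7 CPM in untreated cells (0.77 ± 0.15, edgeR adjusted p of 0.0346 over 6 libraries). By edgeR over 8 libraries the adjusted p was 0.39 for EDA2R and 0.47 for SPATA18. BAX, the pore-forming death effector, lay less far apart, at 87.8 and 93.8 CPM at 24 µg/ml and 77.8 and 64.0 CPM in untreated cells (0.36 ± 0.17), and none of the 5 fits called it. PMAIP1 (NOXA) and APAF1 overlapped between groups, and PERP, a desmosomal membrane protein, was lower in both 24 µg/ml libraries (-0.15 ± 0.13). BIRC3, an inhibitor of apoptosis, had the lowest value of the list, with 2.01 and 3.68 CPM at 24 µg/ml and 4.69 and 3.64 CPM in untreated cells (-0.55 ± 0.41), and its groups overlapped.

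Among 20 targets of repair, metabolism and secretion 19 lay above 0, with a median of 0.42. DDB2, which finds ultraviolet-type lesions in chromatin, had 56.1 and 57.8 CPM at 24 µg/ml and 38.2 and 34.7 CPM in untreated cells (0.64 ± 0.14, edgeR adjusted p of 0.036 over 6 libraries). Its edgeR adjusted p over 8 libraries was 0.6. POLH, a polymerase that copies past damaged bases, had 28.6 and 28.4 CPM at 24 µg/ml and 19.3 and 19.4 CPM in untreated cells (0.56 ± 0.12). XPC, the lesion sensor of global excision repair, had a log2 fold change of 0.37 and RRM2B, the p53-induced ribonucleotide reductase subunit, 0.59.

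The 2 largest log2 fold changes of the p53 lists were in genes at low level. ABCA12, a lipid transporter of skin and lung, had 1.93 and 3.39 CPM at 24 µg/ml and 0.665 and 0.622 CPM in untreated cells (2.05 ± 0.32, edgeR adjusted p of 0.0444 over 6 libraries). GLS2, the p53-inducible glutaminase, had 1.31 and 2.12 CPM at 24 µg/ml and 0.701 and 0.604 CPM in untreated cells (1.39 ± 0.27, called by DESeq2 alone of the 4 fits, adjusted p of 0.0281). The edgeR adjusted p over 8 libraries was 0.256 for ABCA12 and 0.47 for GLS2.

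**Figure D2:**
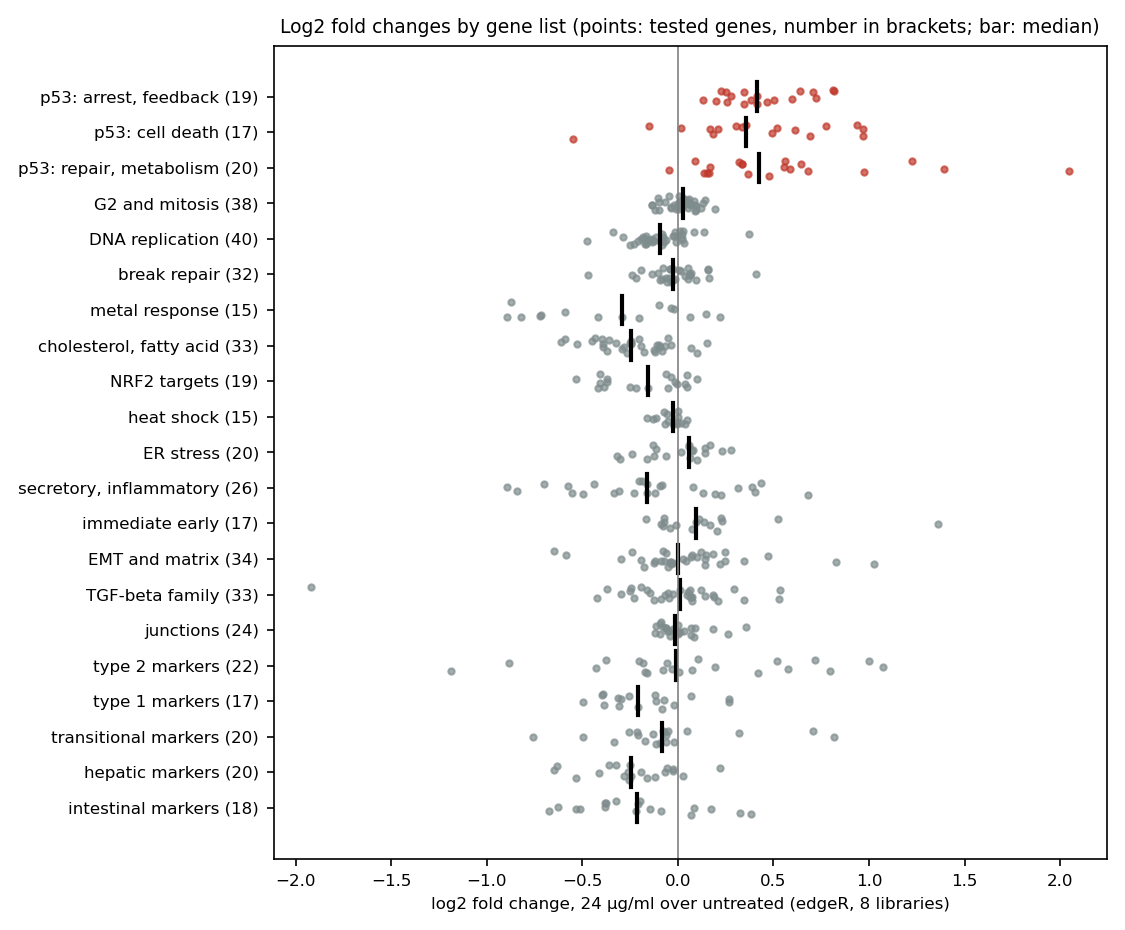
Log2 fold changes of 24 µg/ml over untreated cells (edgeR over 8 libraries) for the tested genes of 21 lists; points are genes and black bars are medians. The 3 p53 lists have medians of 0.41, 0.36 and 0.42, the G2 and mitosis list 0.03 and the cholesterol and fatty acid list -0.24.

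Genes of G2 phase and mitosis showed no shared direction at the lowest dose. For 38 of them the median log2 fold change was 0.03, in a range of -0.14 to 0.20, and 7 of 38 (18.4%) lay higher without overlap, close to the 18.6% of all genes. MKI67, the proliferation antigen Ki-67, had 118 and 119 CPM at 24 µg/ml and 119 and 126 CPM in untreated cells (-0.04 ± 0.22). In the next comparison, 240 µg/ml against 24 µg/ml by edgeR over 8 libraries, 28 of the 38 were lower at 240 µg/ml, with 3.49% of all genes called lower, and at 480 µg/ml all 38 were lower, with 13.4% of all genes. MKI67 stood at 46.2 and 41.4 CPM at 240 µg/ml (-1.44 ± 0.23 against 24 µg/ml, edgeR adjusted p of 0.0144).

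Of 40 DNA replication genes 31 lay below 0 at 24 µg/ml, with a median of -0.09, and 15 were lower without overlap (37.5%, against 17.8% of all genes). The median was -0.04 without 24 µg/ml replicate 1 and -0.05 without untreated replicate 2. CDC45, a part of the replicative helicase, had 3.55 and 3.65 CPM at 24 µg/ml and 4.91 and 5.09 CPM in untreated cells (-0.47 ± 0.17). TYMS, thymidylate synthase, lay the other way, with 89.0 and 93.2 CPM at 24 µg/ml and 70.1 and 70.8 CPM in untreated cells (0.37 ± 0.11). None of the 5 fits called either gene. The 32 genes of break signalling and repair had a median of -0.03.

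Genes of cholesterol and fatty acid synthesis lay lower at 24 µg/ml. Of 33 tested members 30 were below 0, with a median log2 fold change of -0.24, and in 26 (78.8%) both 24 µg/ml libraries lay below both untreated ones, against 17.8% of all genes. None of the 33 was called by edgeR over 8, 6 or 4 libraries, by DESeq2 or by voom, and 9 had an unadjusted p under 0.05 by edgeR over 8 libraries, all of them lower. The median was -0.24 in 24 µg/ml replicate 1 and -0.25 in replicate 2.

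MSMO1, a sterol demethylase of the late pathway, had 179 and 150 CPM at 24 µg/ml and 243 and 259 CPM in untreated cells (-0.61 ± 0.15, edgeR adjusted p of 0.777 over 8 libraries and 0.181 over 6). INSIG1, which holds the sterol sensor in the endoplasmic reticulum and is itself induced when sterols are short, had 36.6 and 30.4 CPM at 24 µg/ml and 45.8 and 50.9 CPM in untreated cells (-0.53 ± 0.16). HMGCS1, an early enzyme of the mevalonate pathway, had 159 and 161 CPM at 24 µg/ml and 204 and 232 CPM in untreated cells (-0.45 ± 0.17).

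The groups did not overlap for these 3 genes. SQLE, squalene epoxidase, had a log2 fold change of -0.43. The exceptions above 0 were PMVK (0.15), TM7SF2 (0.07) and STARD4 (0.10). A sterol regulatory element, TCACNCCAC on either strand, occurred in windows of 1 of 25 list genes (4.00%) and in 1.45% of tested genes, and a CCAAT box in 20 of 25 (80.0%) and in 42.3% of tested genes.

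Metallothioneins, small cysteine-rich proteins that bind zinc and copper, lay lower as well. All 5 that were tested lay lower without overlap, with a median log2 fold change of -0.82, where 17.8% of all genes lay lower in this way. They are a subset of the 15 tested genes of metal response and transport, whose median was -0.29, with 9 lower without overlap (60.0%). That wider median was -0.47 without 24 µg/ml replicate 1 and -0.19 without untreated replicate 2. MT2A (chr16:56608584-56609497) had 43.5 and 50.4 CPM at 24 µg/ml and 90.8 and 81.2 CPM in untreated cells (-0.87 ± 0.33). MT1X had 18.2 and 23.2 CPM at 24 µg/ml and 33.3 and 35.0 CPM in untreated cells (-0.72 ± 0.34), and MT1E had 7.74 and 6.90 CPM at 24 µg/ml and 13.6 and 12.3 CPM in untreated cells (-0.82 ± 0.26).

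Among these 5 fits the single call was MT2A by edgeR over 4 libraries (adjusted p of 0.048, with 0.0115% of all genes called lower), and its adjusted p was 1 over 8 libraries and 0.401 over 6. Metallothionein genes are near-identical copies, so counts of single members are uncertain, while their summed level was 80.2 and 90.5 CPM at 24 µg/ml and 158 and 147 CPM in untreated cells. The MT2A window is printed for its many copies of the metal response element, searched as TGCACNC or TGCGCNC on both strands and marked in capitals. It lies at chr16:56608334-56608633 on the plus strand (RefSeq, GRCh38.p14).
MT2A: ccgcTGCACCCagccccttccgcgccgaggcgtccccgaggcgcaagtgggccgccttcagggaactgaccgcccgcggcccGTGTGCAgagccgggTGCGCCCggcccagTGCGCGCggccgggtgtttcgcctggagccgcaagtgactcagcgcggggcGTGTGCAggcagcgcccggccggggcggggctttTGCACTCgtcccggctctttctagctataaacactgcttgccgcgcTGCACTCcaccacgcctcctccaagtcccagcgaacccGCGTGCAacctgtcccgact
The window holds 8 matches, and 44.5% of tested genes with a window hold at least 1. That share does not show how often a window holds 8. The motif was narrowed after a looser form had matched most genes, and a match is not evidence of binding.

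**Figure D3:**
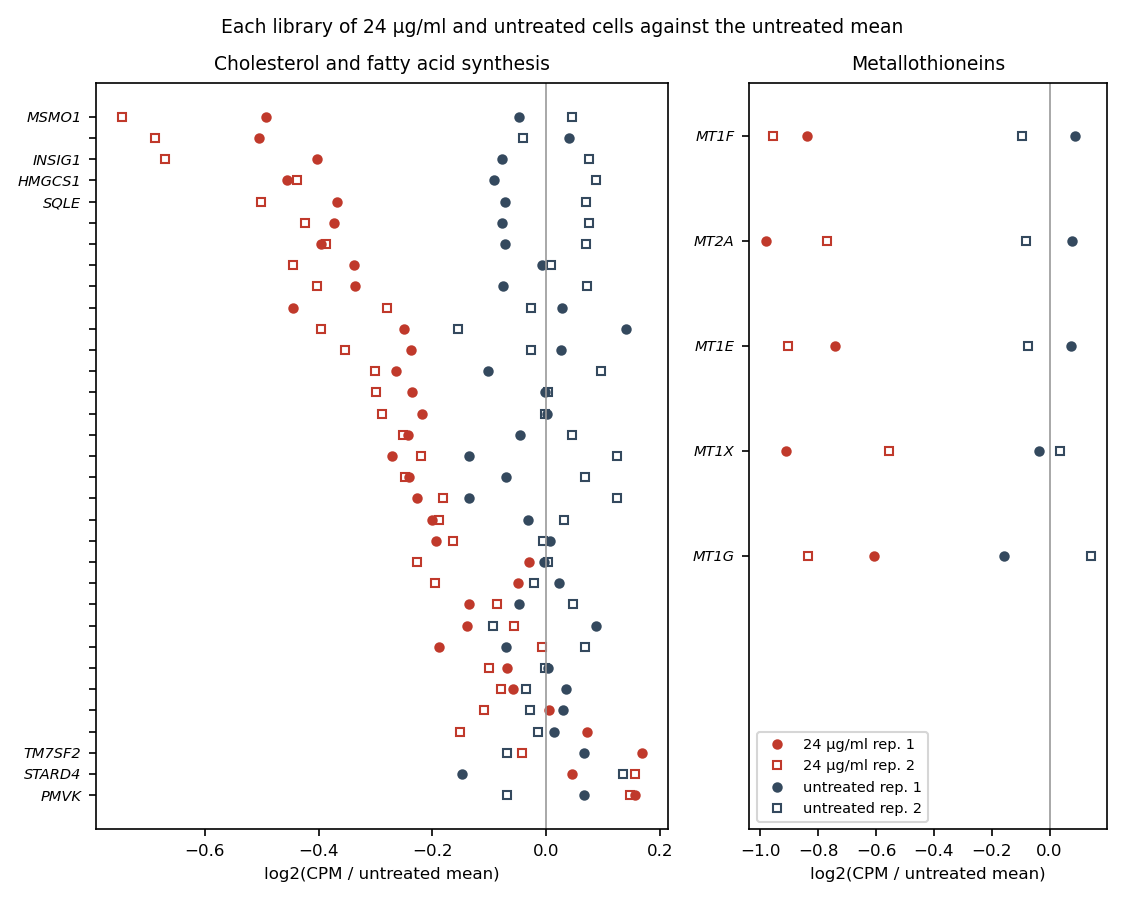
Each library as log2 of its CPM over the untreated mean, for 33 genes of cholesterol and fatty acid synthesis (those described by name are labelled) and 5 metallothioneins; red is 24 µg/ml, dark blue is untreated, filled circles are replicate 1 and open squares replicate 2. In 26 of the 33 and in all 5 metallothioneins both red points lie left of both blue ones.

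Of the 45 genes called by at least 1 of the 4 other fits, 7 were lower at 24 µg/ml, MT2A among them. INHBA, which encodes the subunit of activin A, a TGF-beta family ligand, had 0.604 and 0.570 CPM at 24 µg/ml and 2.43 and 2.02 CPM in untreated cells. Its log2 fold change was -1.92 ± 0.33, with an adjusted p of 0.356 by edgeR over 8 libraries, 0.0444 over 6 and 0.0873 over 4, 0.0499 by DESeq2 and 0.0322 by voom. EDN1, the vasoconstrictor peptide endothelin-1, had 3.02 and 3.14 CPM at 24 µg/ml and 8.76 and 5.87 CPM in untreated cells (-1.25 ± 0.24), and was called by DESeq2 (adjusted p of 0.0292) but by none of the other 3 fits.

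CYP1A1, a target of the aryl hydrocarbon receptor, was likewise called by DESeq2 alone (adjusted p of 0.0292), with 37.2 and 31.6 CPM at 24 µg/ml and 72.6 and 50.5 CPM in untreated cells (-0.84 ± 0.20). Below the threshold in those 4 fits lay CDKN2B, the cyclin-dependent kinase inhibitor p15, with 11.8 CPM in both 24 µg/ml libraries and 17.9 and 16.7 CPM in untreated cells (-0.55 ± 0.15), and DKK1, a secreted Wnt inhibitor, with 9.20 and 10.0 CPM at 24 µg/ml and 15.7 and 13.8 CPM in untreated cells (-0.62 ± 0.16). For each of these genes the groups did not overlap.

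Genes tied to fibrosis showed no shared direction at the lowest dose. The 34 genes of mesenchymal transition and matrix had a median log2 fold change of 0.00, and 1 of them, ACTA2, was called by each of the 4 other fits. COL1A1, a chain of type I collagen, had 50.3 and 61.2 CPM at 24 µg/ml and 44.9 and 56.2 CPM in untreated cells, and the log2 fold change of FN1, fibronectin, was -0.04 ± 0.11. MMP2, a gelatinase, had 5.56 and 6.48 CPM at 24 µg/ml and 3.15 and 3.63 CPM in untreated cells (0.83 ± 0.20) and was called by none of the 5 fits. TAGLN, another smooth muscle gene, lay opposite to ACTA2, with 26.8 and 37.3 CPM at 24 µg/ml and 61.0 and 39.4 CPM in untreated cells (-0.65 ± 0.25). TGFB1 had 77.7 and 67.8 CPM at 24 µg/ml and 60.1 and 58.7 CPM in untreated cells (0.29 ± 0.20), and the 33 genes of the TGF-beta family and its response had a median of 0.01.

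Secreted and inflammatory genes had a median of -0.16 over 26 tested members, and 11 of them lay lower without overlap (42.3%, against 17.8% of all genes). IL6 had 0 counts in all 8 libraries and was not tested. CXCL8 had 0.589 and 0.643 CPM at 24 µg/ml and 1.40 and 0.812 CPM in untreated cells (-0.84 ± 0.62). NRF2 targets, which answer oxidants, had a median of -0.16, with 10 of 19 lower without overlap (52.6%, against 17.8% of all genes) and 0 higher (against 18.6%). The NRF2 median was -0.07 without 24 µg/ml replicate 1 and -0.09 without untreated replicate 2. The heat shock, endoplasmic reticulum stress, interferon and immediate early lists had medians of -0.03, 0.06, -0.04 and 0.10.

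Markers of type 2 cells showed no shared direction, and those of type 1 cells lay mostly below 0. The 22 tested type 2 markers had a median of -0.01, with 7 higher (31.8%, against 18.6% of all genes) and 5 lower (22.7%, against 17.8%) without overlap. SLC34A2, the phosphate transporter of type 2 cells, had 9.44 and 6.49 CPM at 24 µg/ml and 14.1 and 15.3 CPM in untreated cells (-0.88 ± 0.28), while PGC, a protease of the type 2 lineage, had 5.65 and 9.47 CPM at 24 µg/ml and 3.76 and 3.80 CPM in untreated cells (1.00 ± 0.27). The 17 type 1 markers had a median of -0.21, with 9 lower without overlap (52.9%, against 17.8% of all genes), among them ANXA1, with 13.4 and 13.2 CPM at 24 µg/ml and 20.3 and 17.1 CPM in untreated cells (-0.49 ± 0.15). None of these markers was called by any of the 5 fits, although PGC passed in edgeR over 8 libraries once every low gene was kept (adjusted p of 0.0168).

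The 2 libraries of 24 µg/ml differed in markers of other lineages. Over 20 hepatic markers the median against the untreated mean was 0.05 in replicate 1 and -0.62 in replicate 2, and the summed level was 60700 and 41600 CPM at 24 µg/ml and 55500 and 57100 CPM in untreated cells. Over 18 intestinal markers the medians were -0.01 and -0.44, and over 16 ciliated cell markers 0.12 and 0.44. The 2 untreated libraries stood at 0.03 and -0.03 for hepatic, 0.04 and -0.04 for intestinal and -0.13 and 0.13 for ciliated markers. FOXJ1, the master regulator of motile cilia, had 3.99 and 5.16 CPM at 24 µg/ml and 2.09 and 2.44 CPM in untreated cells (1.02 ± 0.27). None of the 5 fits called FOXJ1, although it passed in edgeR over 8 libraries once every low gene was kept (adjusted p of 0.0469). Log2 fold changes of the ciliated list ranged from -0.35 to 1.16. Without replicate 2 the hepatic median was 0.05 and the p53 medians kept their sign, and the p53, cholesterol and metallothionein medians had the same sign in both 24 µg/ml libraries. The part of these lineage differences in the type 1, secretory and alveolar lists was not tested. Ribosomal RNA took 2.93% and 1.78% of counts at 24 µg/ml and 1.67% and 1.32% in untreated cells, and without ribosomal, mitochondrial and AFP counts edgeR over 8 libraries again called 0 genes.

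**Figure D4:**
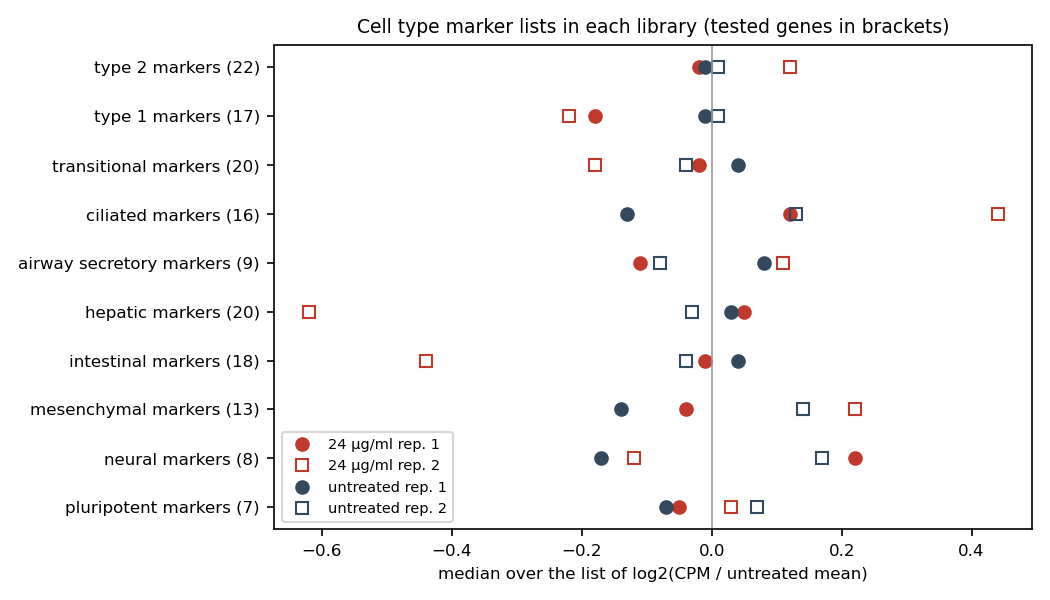
Median over each marker list of log2 CPM over the untreated mean, for each library; red is 24 µg/ml, dark blue is untreated, filled circles are replicate 1 and open squares replicate 2. Replicate 2 of 24 µg/ml stands at -0.62 for hepatic and -0.44 for intestinal markers, where replicate 1 stands at 0.05 and -0.01.

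Set beside the higher doses, the genes with the smallest p at 24 µg/ml divided into those that differed between 24 and 240 µg/ml and those for which no further difference was detected. These comparisons use the same 24 µg/ml libraries that picked the genes, so the sizes are a description. By edgeR over 8 libraries no gene named by rule was called at 24 µg/ml against untreated cells. Of the 14 higher genes named by rule, 10 were called higher at 240 than at 24 µg/ml (3.34% of all genes were), and 11 at 480 µg/ml (12.7%). Of the 10 lower ones, 5 were called lower at 240 than at 24 µg/ml (3.49% of all genes were) and 6 at 480 µg/ml (13.4%). The 15 calls at 240 µg/ml rest on the full set of libraries: without either 24 µg/ml library or 240 µg/ml replicate 2 there were 0, and without 240 µg/ml replicate 1 there was 1.

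FDXR ran through 7.71 and 7.60 CPM untreated, 18.2 and 17.6 at 24 µg/ml, 47.3 and 45.5 at 240 µg/ml, then 50.5 and 76.8 at 480 µg/ml. From 24 to 240 µg/ml its log2 fold change was 1.37 ± 0.18 (edgeR adjusted p of 0.00967), while CDKN1A differed by 1.21 ± 0.19 (0.0131), MDM2 by 0.91 ± 0.13 (0.00998) and ACTA2 by 1.24 ± 0.16 (0.00926). For these 4 genes all libraries of 240 µg/ml lay above all libraries of 24 µg/ml, which lay above all untreated ones.

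INPP5D ran through 51.4 and 44.6 CPM untreated, 83.7 and 89.2 at 24 µg/ml, 93.8 and 104 at 240 µg/ml, then 66.5 and 72.4 at 480 µg/ml. No difference between 240 and 24 µg/ml was detected for it (0.19 ± 0.13, edgeR adjusted p of 0.381), for GDF15 (0.40 ± 0.17, 0.185) or for CYP26B1, a retinoic acid hydroxylase (-0.07 ± 0.17, 0.827). GDF15 was however called higher at 480 than at 24 µg/ml (0.60 ± 0.17, edgeR adjusted p of 0.0314). PTCHD4 was highest at 24 µg/ml, with 31.4 and 33.9 CPM, against 26.3 and 30.2 at 240 µg/ml, and fell to 23.5 and 17.6 CPM at 480 µg/ml (-0.67 ± 0.17 against 24 µg/ml, edgeR adjusted p of 0.0196).

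Among lower genes, MT2A ran through 90.8 and 81.2 CPM untreated, 43.5 and 50.4 at 24 µg/ml, 8.43 and 4.05 at 240 µg/ml, then 1.96 and 4.04 at 480 µg/ml. Its log2 fold change from 24 to 240 µg/ml was -2.92 ± 0.37 (edgeR adjusted p of 0.00905). No difference between 240 and 24 µg/ml was detected for INHBA or MSMO1, at -0.05 ± 0.35 and 0.02 ± 0.14 (edgeR adjusted p of 0.944 and 0.949). INSIG1 lay between, with a further difference of -0.80 ± 0.16 at 240 µg/ml (0.0246). As lists against untreated cells, p53 arrest genes had medians of 0.41, 0.82 and 0.93 at 24, 240 and 480 µg/ml, and cholesterol and fatty acid genes -0.24, -0.44 and -0.52, each dose set against the same 2 untreated libraries.

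**Figure D5:**
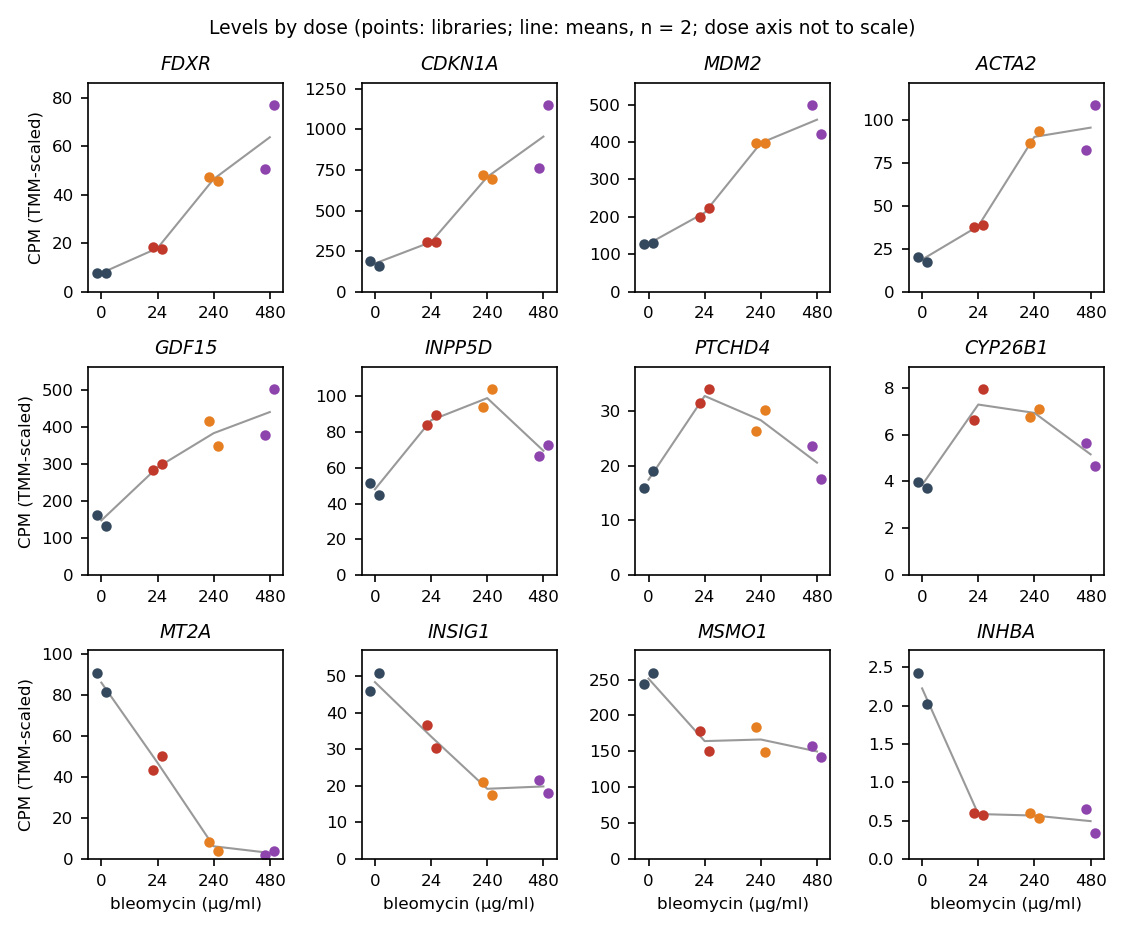
CPM of 12 genes across the doses of 0 (untreated), 24, 240 and 480 µg/ml; points are libraries, lines join means of n = 2 and the dose axis is not to scale. FDXR, CDKN1A, MDM2 and ACTA2 step up again at 240 µg/ml, GDF15, INPP5D, PTCHD4 and CYP26B1 were not called different there, and MT2A and INSIG1 step down again where no further difference was detected for MSMO1 and INHBA.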

How the data were processed

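Counts, TPM and FPKM for 8 libraries were deposited by the authors as tables of 1 value for each gene symbol and library. Per the labels' protocols, libraries were TruSeq stranded mRNA libraries from 1 µg of total RNA. Per the submitters' processing notes, the tools were HISAT2, StringTie, Trimmomatic and Bowtie2, with GRCh38 as the build, and versions, annotation and the strand counted are not given in the sources used here. The deposited counts are raw read counts per symbol, and the deposited TPM values, scaled by the authors to a common total, served for 2 alternatives. FPKM were not used.

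Totals were 53431773 to 67715984 counts a library, and a count of 0 allows up to 3 counts, 0.0443 to 0.0561 CPM. Counts were fitted with edgeR 4.0.16 in R 4.3.3 (TMM factors, filterByExpr with at least 10 counts and 15 in total, group as the only term, all 8 libraries), which left 18303 genes. Standard errors (SE) were taken as the absolute log2 fold change over the square root of F. Alternatives used DESeq2 1.42.0 and limma 3.58.1, and 19 were run. The fit over all 8 libraries was kept as the first although it made no call. The steps were tested on simulated data.

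The members, the 31 gene lists, the tests and the rule for naming genes were chosen with earlier results of these data known. The rule takes, among genes that average 1 or more on the log2 CPM scale and whose groups do not overlap, the 14 higher and 10 lower with the smallest p, the genes called by the fit of the 2 groups alone or by DESeq2, 3 members of each list and a fixed set. Genes outside it are described as list members. RefSeq windows matched 13134 of 18303 tested symbols. Of 4 motifs searched, the metal response element was narrowed after a looser form had matched most genes.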

Additional observations from a re-analysis of the deposited data

How the results depend on the processing

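The count of genes called at 24 µg/ml against untreated cells depended on the fit. It was 0 by edgeR over 8 libraries, 36 by DESeq2, 83 with no filter on low counts, 14 with only the 4 libraries compared, 24 without the libraries of 480 µg/ml, 19 by voom with 1 weight for each group and 1 by limma on log2(TPM + 0.1). It stayed at 0 with RLE factors, with at least 50 counts in 2 libraries, without abundant RNA and by limma on log2(TPM + 1). Leaving out each library in turn gave 0 to 24, the 24 without replicate 1 or replicate 2 of 480 µg/ml and 0 otherwise. With replicate number as a block the count was 0, with 587 genes at an unadjusted p under 0.05. Same-numbered libraries of 24 µg/ml and untreated cells had deviations with a correlation of 0.0344, and other pairs of groups -0.0797 to 0.0449. No pairing by number was detected, and these correlations cannot exclude one. Of the 24 genes named by rule, 15 differed between 240 and 24 µg/ml, and 0 to 18 when each library was left out in turn; 17 differed between 480 and 24 µg/ml, and 13 to 18 in the same way. The cholesterol and fatty acid median of -0.24 was -0.23 on log2(TPM + 1) and on log2(TPM + 0.1), and -0.27 to -0.19 with each library left out in turn. The p53 and metallothionein medians kept their sign in each alternative. Over 2582 values of named genes under the alternatives, 147 gained a call and 17 changed sign, none of them a called value. The cause of the differences between fits was not tested. SFTPC, SFTPA1, SFTPA2 and IL6 had too few counts to pass the filter, so a difference in them could not be tested.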
